A study of Rattus norvegicus with 30 samples.

Results

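Txnip encodes thioredoxin-interacting protein, a member of the alpha-arrestin family. It is described here as 1 gene of the 26785 represented on a rat expression array, and as 1 of the 18333 that were above background often enough to be tested. Probes without a matched symbol were counted under their accession or probe name, so several of these entries may belong to the same gene. Of the 18333 tested entries, called genes throughout, 11304 had a symbol. It was found as every probe whose RefSeq transcript accession belongs to rat Txnip, which gave 1 probe, A_44_P237621, designed against NM_001008767 and printed as 2 spots on each array. The gene was chosen by its differences between groups on these same arrays, which were already known, among them that it was the 1 gene (0.00545% of those tested) that passed an adjusted p of 0.05 between glucose-perfused and mannitol-perfused hearts of sucrose-fed rats. Its levels and differences are therefore given as a description, with the standard error (SE) of the fit across all genes and without a test.

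TXNIP binds the reduced form of thioredoxin and holds back its activity, and it draws the glucose transporters GLUT1 and GLUT4 from the cell surface into the cell. Its gene is a standard example of transcription that follows glucose: when phosphorylated hexoses accumulate, the factors MondoA or ChREBP, paired with MLX, act on carbohydrate response elements in its promoter. In striated muscle the protein is known as a brake on glucose uptake.

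RNA came from the left ventricle of male rats of the Sprague Dawley strain, 16 to 18 weeks old, and was read on one-colour Agilent arrays, 1 for each of 5 biological replicates in 6 groups. Sucrose-fed rats had eaten feed rich in sucrose over a period of 8 to 10 weeks, used in the study to make the animals insulin resistant, and the other rats had received standard chow. Within each diet, hearts had been perfused outside the body with a buffer containing glucose, perfused in the same way with mannitol in place of glucose, or frozen without perfusion. All rats had been anaesthetised with chloral hydrate at 500 mg/kg and all hearts had passed through ice-cold buffer. The perfused hearts had worked for 60 min against an afterload of 100 cm of water, with a filling pressure of 15 cm. Their buffer held 2.5 mmol/L calcium, 2 mmol/L propionate and, as ketone bodies, 10 mmol/L beta-hydroxybutyrate with 1 mmol/L acetoacetate, together with glucose at 25 mmol/L or, as an osmotic control, mannitol at 25 mmol/L. Non-perfused hearts were dissected and frozen at once, so they stand for tissue taken directly from the animal. The mannitol hearts had ketone bodies and propionate as fuels but no glucose in the buffer.

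All 8 cardiomyocyte markers examined, among them Myh6 and Tnnt2, were well above background on all 30 arrays. The share of probes well above background on an array ran from 48.8% to 75.4%. Arrays came from 5 slides, of which 4 held all 6 groups and 1 held only replicate 1 of the sucrose mannitol group. The glucose arrays all lay in row 2 of their slides and the chow mannitol and non-perfused arrays all in row 1, while sucrose mannitol arrays lay in row 2 except replicate 1. The number of arrays limits the precision.

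Txnip was strongly expressed on every array. Its probe was well above background on 30 of 30 arrays and saturated on 0, with processed intensities between 4439 and 17967 units. Levels below are log2 values of the mean of both spots relative to the array's own 75th percentile of signal, so a difference of 1 is 2-fold. In linear terms the probe lay between 5.66 and 21.1 times the 75th percentile of its array.

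In sucrose-fed hearts perfused with glucose, Txnip stood at 4.22, 4.18, 3.46, 4.19 and 4.40 on the 5 arrays (replicates 1 to 5). With mannitol the 5 arrays of sucrose-fed rats gave 3.13, 2.83, 2.99, 2.50 and 2.69. Sucrose-fed hearts that were not perfused gave 3.45, 3.20, 3.85, 3.77 and 3.01. All 5 glucose arrays lay above all 5 mannitol arrays, with replicate 3 of the glucose group well below its 4 companions, and the non-perfused arrays overlapped with both perfused groups.

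In chow-fed hearts perfused with glucose, the 5 arrays gave 4.26, 4.26, 3.75, 4.06 and 4.14. Chow-fed hearts perfused with mannitol gave 3.23, 3.13, 3.28, 3.35 and 3.24. The non-perfused chow hearts gave 2.77, 3.45, 4.01, 3.63 and 3.48. Again every glucose array exceeded every mannitol array. The mannitol group was the tightest of the 6, while the non-perfused chow arrays spread on both sides of it and reached into the range of the glucose arrays.

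**Figure D1:**
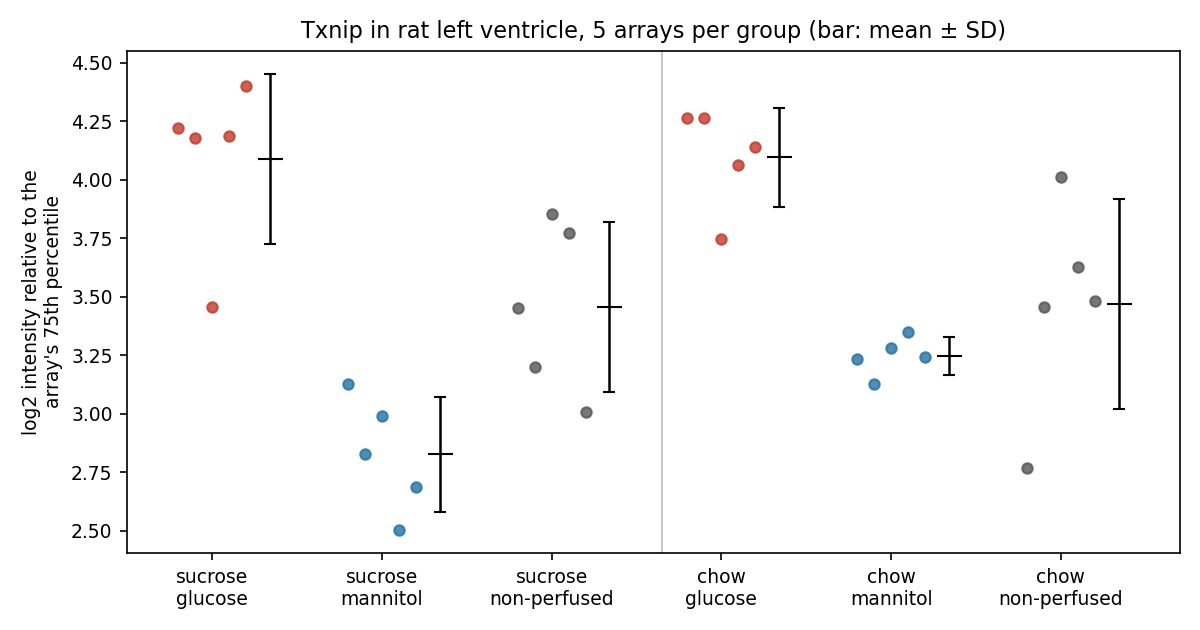
Txnip level on each of the 30 arrays, as log2 intensity relative to the array's 75th percentile (vertical axis), for the 6 groups (horizontal axis); points are replicates 1 to 5 from left to right within a group, and the bar beside them is the mean ± SD. In each diet the 5 glucose arrays lie above the 5 mannitol arrays, and the non-perfused arrays overlap with both.

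By group mean, the order was chow glucose at 4.10 ± 0.213 (SD, n = 5 here and for each group), sucrose glucose at 4.09 ± 0.365, chow non-perfused at 3.47 ± 0.450, sucrose non-perfused at 3.46 ± 0.363, chow mannitol at 3.25 ± 0.0800 and sucrose mannitol at 2.83 ± 0.246. The 2 glucose groups differed by 0.01, the 2 non-perfused groups by 0.01, and sucrose non-perfused from chow mannitol by 0.21, all within the larger SD of the pair. Neighbours further apart than that SD were sucrose glucose and chow non-perfused, by 0.62 with overlapping arrays, and chow mannitol and sucrose mannitol, by 0.42 without overlap.

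Glucose against mannitol asks how the sugar in the buffer bears on the transcript when both hearts have been perfused. In sucrose-fed hearts, the Txnip level was 17.0 times the 75th percentile with glucose and 7.09 times with mannitol (geometric means), a log2 difference of 1.26 (SE 0.19) or 2.40-fold. The lowest glucose array and the highest mannitol array were 0.33 apart. All 5 arrays were higher than all 5 for 0.584% of the tested genes in this comparison. Of 18333 differences, that of Txnip was the 11th largest among those higher with glucose and the 38th by size in either direction.

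In chow-fed hearts, the level was 17.1 times the 75th percentile with glucose and 9.49 times with mannitol, a log2 difference of 0.85 (SE 0.19) or 1.80-fold. The nearest arrays of the 2 groups were 0.40 apart, and 0.322% of the tested genes had all 5 glucose arrays above all 5 mannitol arrays. The difference was the 54th largest among those higher with glucose and the 98th by size. No gene passed an adjusted p of 0.05 in chow hearts with limma, and 715 had an unadjusted p under 0.05. In sucrose hearts 928 genes had an unadjusted p under 0.05.

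The chow and sucrose hearts share no arrays, but they share slides. Txnip was chosen with its differences on these arrays known, so its count and rank here are a description and no separate support. Of the 18333 tested genes, 1 had all glucose arrays above all mannitol arrays in both diets, and it was Txnip (0.00545%), while 0 genes had the reverse pattern in both. Ranked by the smaller of its differences in the 2 diets, Txnip came 5th. The difference between diets in the glucose response was 0.41 on the log2 scale (sucrose minus chow, SE 0.27). Glucose and mannitol arrays lay in different rows in chow hearts but mostly in the same row in sucrose hearts. Diet and row can thus hardly be told apart in that difference. No gene passed the threshold for that interaction, with 918 at an unadjusted p under 0.05.

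In bulk tissue, fewer cells of a type and less RNA per cell cannot be told apart. In glucose against mannitol, none of the 37 tested markers of 8 cell types passed the threshold in either diet, where 0.00545% of all tested genes passed in sucrose and 0% in chow hearts, so nothing is read from that count. The marker furthest from 0 was S100a9, a neutrophil gene well above background on 13 of the 30 arrays, at -1.22 (SE 0.48) in sucrose hearts and 0.60 (SE 0.48) in chow hearts. In chow hearts it was the red cell gene Hba-a1, at -0.69 (SE 0.40). The part of these markers in the Txnip difference was not tested. Within the 4 slides that held both groups, the sucrose difference was 1.36, 1.32, 1.68 and 0.77 on slides 1 to 4, and the chow difference was 0.92, 0.92, 0.51 and 0.94. Every within-slide difference was positive. Among arrays in row 2 only, 5 sucrose glucose arrays averaged 4.09 and 4 sucrose mannitol arrays averaged 2.75, a difference of 1.34. In chow hearts, the buffer and the row on the slide cannot be told apart.

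**Figure D2:**
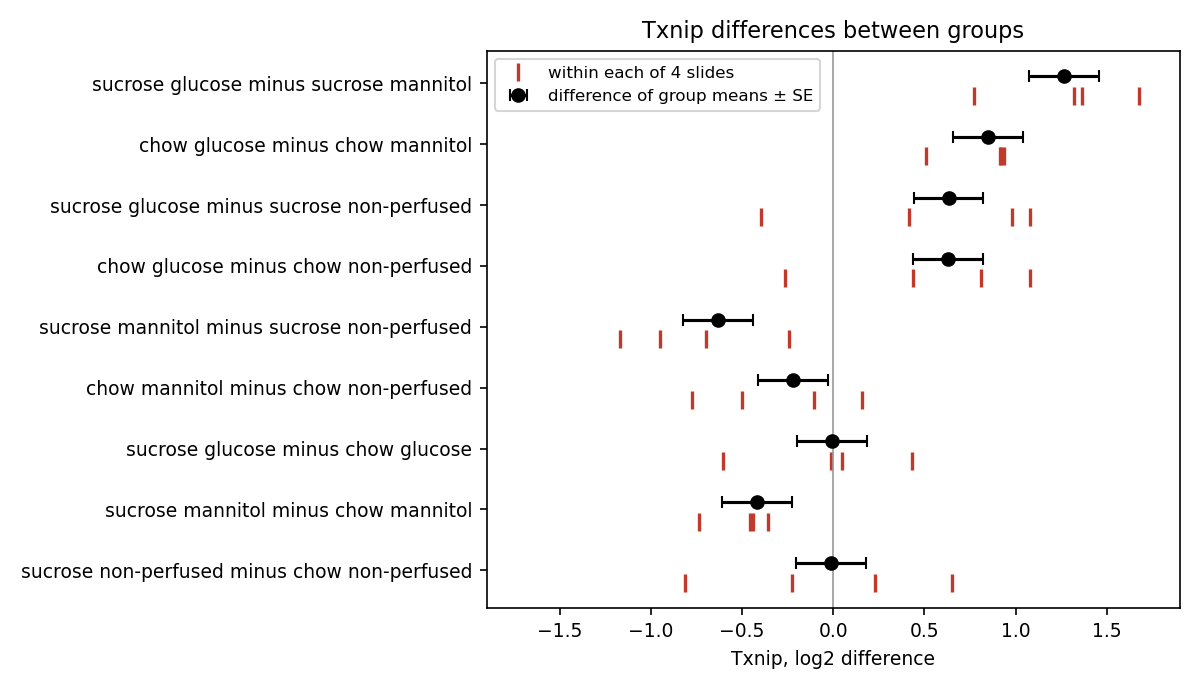
Log2 differences in Txnip between groups (horizontal axis) for the 9 pairs of groups named on the vertical axis; black points are differences of group means ± SE from the fit over 30 arrays, and red ticks are differences within each of the 4 slides that held all groups. The glucose minus mannitol differences of 1.26 and 0.85 are positive on every slide, whereas ticks of the glucose minus non-perfused rows lie on both sides of 0.

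Each Txnip value is a mean of 2 spots, and the spots tell how closely a single array fixes the level. Their median absolute difference was 0.14 on the log2 scale, with a mean of 0.23, and the second spot was the higher on 21 of 30 arrays. Over the 30 arrays the spots correlated at r = 0.83. The SD of a single spot within an array was 0.238 over all readings. The pooled SD between arrays of a group was 0.311, but it is that of levels that average the spots. These SDs are not on the same footing, because averaging 2 spots lowers the spot part of a level.

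On 3 arrays the spots were more than 0.5 apart. In chow glucose replicate 3 they read 4.17 and 3.13, a 2.06-fold gap in intensity, and the first of these values lay among the spot values of the other chow glucose arrays while the second lay below all of them. In sucrose mannitol replicate 4 they read 2.87 and 2.01. In chow non-perfused replicate 2 they read 3.15 and 3.70. The lowest chow glucose level and the lowest level of all 30 arrays thus each rested on 1 low spot. By contrast, sucrose glucose replicate 3, the low array of its group, was low on both spots, at 3.50 and 3.41.

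With the first spot alone, the glucose minus mannitol difference was 1.18 in sucrose hearts and 0.81 in chow hearts. With the second spot alone it was 1.36 in sucrose hearts and 0.86 in chow hearts. Of the 60 readings, 1 was marked as an outlier by the scanner software, the first spot of chow non-perfused replicate 5, and it was left out of that array's level.

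**Figure D3:**
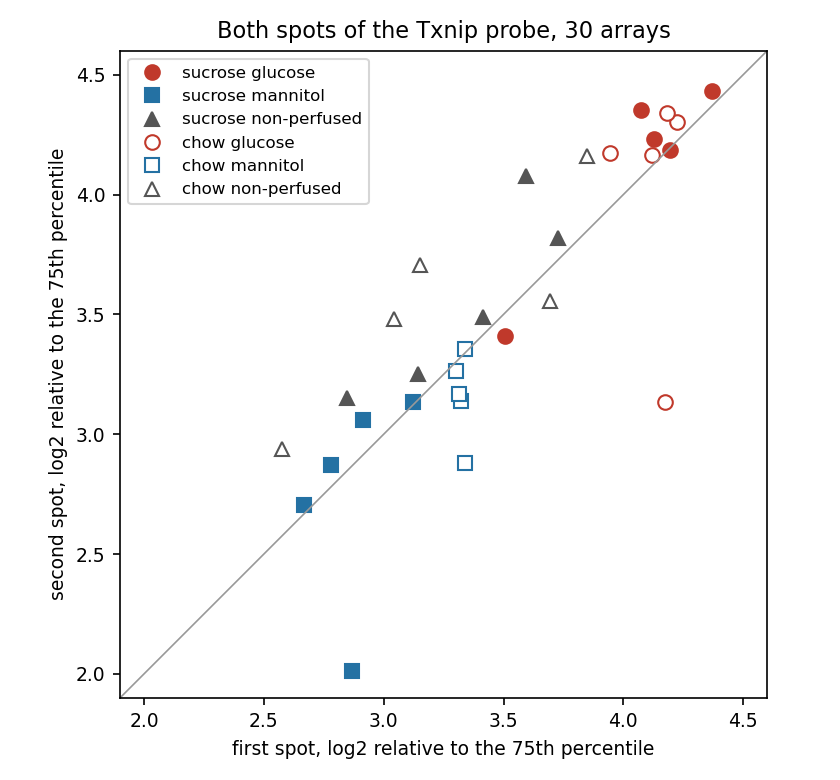
First spot (horizontal axis) against second spot (vertical axis) of the Txnip probe on 30 arrays, both as log2 intensity relative to the array's 75th percentile; colours and shapes are the perfusion state, filled symbols sucrose and open symbols chow, and the line marks equal values. Most arrays lie near the line, with chow glucose replicate 3 and sucrose mannitol replicate 4 below it, at 3.13 and 2.01 on the second spot.

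Scaling matters for a single probe of this kind because arrays differ in brightness. The 75th percentile ran from 560.3 to 1234 intensity units over the 30 arrays, and the highest belonged to sucrose mannitol replicate 1, the array alone on its slide. Before scaling, Txnip intensity ran from 7129 to 17967 units in sucrose glucose hearts and from 4439 to 10781 units in sucrose mannitol hearts. Those unscaled ranges overlap through this bright array. Scaled, the same array stood at 3.13, still the highest of its group and below the lowest glucose array.

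Glucose perfusion against no perfusion compares the working heart given glucose with tissue taken directly from the animal. Txnip was higher by 0.63 (SE 0.19) in sucrose glucose hearts than in sucrose non-perfused hearts, which is 1.55-fold. It was higher by 0.63 (SE 0.19) in chow glucose hearts than in chow non-perfused hearts, which is 1.54-fold. In each diet 4 of 5 glucose arrays lay above all non-perfused arrays, and the fifth lay among them. Within slides the sign was not uniform: sucrose differences ran from -0.40 to 1.08 and chow differences from -0.27 to 1.08, each positive on 3 of 4 slides. All glucose arrays lay in row 2 and all non-perfused arrays in row 1. Glucose perfusion and row on the slide thus cannot be told apart here, in either diet.

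Mannitol perfusion against no perfusion compares the heart given ketone bodies and propionate without glucose with the same non-perfused tissue, so these differences share their non-perfused arrays with the previous ones. Txnip was lower in sucrose mannitol hearts than in sucrose non-perfused hearts, by -0.63 (SE 0.19) or 1.55-fold, with 4 of 5 mannitol arrays below all non-perfused arrays. Within slides the difference ran from -1.17 to -0.24 and was negative on 4 of 4. Of the sucrose mannitol arrays 4 of 5 lay in row 2, and all sucrose non-perfused arrays lay in row 1. Mannitol perfusion and row can hardly be told apart there, whereas both chow groups lay in row 1. In chow hearts the mannitol minus non-perfused difference was -0.22 (SE 0.19), or 1.17-fold lower, and all 5 mannitol arrays lay within the range of the non-perfused ones. Within slides it ran from -0.77 to 0.16, and with the first spot alone it was 0.06, so its sign depended on the spot.

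Markers of blood cells moved with every comparison against non-perfused hearts. The summed level of 5 red cell markers, in multiples of the 75th percentile, lay between 6.77 and 11.9 in sucrose glucose hearts, between 5.92 and 20.7 in sucrose mannitol hearts and between 526 and 854 in sucrose non-perfused hearts. It lay between 7.65 and 24.1 in chow glucose hearts, between 8.16 and 93.5 in chow mannitol hearts and between 529.7 and 798 in chow non-perfused hearts. In all 4 comparisons 4 of 5 red cell markers and 2 of 2 tested neutrophil markers fell. The summed level of the 2 neutrophil markers ran from 0.00998 to 0.0731 in sucrose glucose, from 0.0161 to 0.0689 in sucrose mannitol and from 0.111 to 0.405 in sucrose non-perfused hearts. It ran from 0.0151 to 0.0481 in chow glucose, from 0.00992 to 0.0225 in chow mannitol and from 0.163 to 0.314 in chow non-perfused hearts. Of all 37 tested markers, 4 rose and 7 fell in sucrose glucose hearts, 1 rose and 7 fell in chow glucose hearts, 5 rose and 9 fell in sucrose mannitol hearts, and 1 rose and 7 fell in chow mannitol hearts. Other cell types were among them. Cldn5, a tight junction gene of endothelium, rose by 1.45 to 2.07 over the 4 comparisons, but the other tested endothelial markers passed in none. The median of the 5 endothelial markers was -0.05, -0.02, 0.05 and -0.01 in sucrose glucose, chow glucose, sucrose mannitol and chow mannitol hearts. Gja5, a connexin gene of atrium and conduction tissue, fell by 1.15 to 1.37. Of the 5 atrial markers it alone passed, except that Myl4 also fell, by 0.20, in sucrose mannitol hearts. Of 5 macrophage markers, Mrc1 and Adgre1 rose in sucrose glucose hearts, by 1.18 and 0.73, and in sucrose mannitol hearts, by 1.55 and 0.65. Cd163 also rose in sucrose mannitol hearts, by 0.72, and no macrophage marker passed in chow hearts. Of 4 fibroblast markers only Dcn passed, rising by 0.33 in sucrose glucose and by 0.39 in sucrose mannitol hearts, and none passed in chow hearts. Of 8 cardiomyocyte markers only Pln passed, falling by 0.34 (limma adjusted p = 0.0101) in sucrose mannitol hearts. The 2 tested neutrophil markers, S100a8 and S100a9, were well above background on only 7 and 13 of the 30 arrays. Many of the values behind their sums were thus not well above background. Among defining neutrophil genes, Mmp8 was above background on 0 arrays and Ngp on 2. The part of these markers in the Txnip differences was not tested.

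Sucrose against chow asks how the diet bears on the level in a given state. With glucose, Txnip differed by -0.01 (SE 0.19) between sucrose and chow hearts. With mannitol it was lower in sucrose hearts by -0.42 (SE 0.19), or 1.34-fold, and all 5 sucrose mannitol arrays lay below all 5 chow mannitol arrays, as 1.31% of the tested genes did. The 2 nearest arrays of this pair were nearly equal, at 3.13 each to the second decimal. Within slides the mannitol difference ran from -0.74 to -0.36. Without perfusion, Txnip differed by -0.01 (SE 0.19), with 2 slides positive and 2 negative. Row on the slide differed between the mannitol groups, where 4 sucrose arrays and 0 chow arrays lay in row 2, and it can hardly be told apart from diet there.

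The genes around Txnip were taken from 7 lists with 76 genes: the thioredoxin system, other alpha-arrestins, the glucose-sensing factors, their targets, other regulators of Txnip, its binding partners, and glucose entry. Of these, 68 had a probe and 63 passed the filter on low signals. Arrdc4, the alpha-arrestin gene often reported together with Txnip, and Mlxip, which encodes MondoA, had no matched probe and were not analysed here.

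Between glucose and mannitol, 0 of the 63 related genes passed an adjusted p of 0.05 with limma in sucrose hearts, against 0.00545% of all tested genes, and 5 had an unadjusted p under 0.05 (3 higher and 2 lower with glucose). In chow hearts 0 of 63 passed, against 0% of all tested genes, and 4 had an unadjusted p under 0.05, all higher with glucose. The median difference of the 63 genes was 0.03 in sucrose hearts, beside 0.02 over all tested genes, and 0.07 in chow hearts, beside -0.02 over all tested genes. Their differences ran from -0.92 (Hk3, a hexokinase of blood cells, well above background on 2 of 5 glucose and 4 of 5 mannitol arrays there) to 0.59 (Il1b) in sucrose hearts and from -0.67 (Casp1) to 0.65 (Srxn1) in chow hearts. None was as far from 0 as Txnip in its diet. The gene whose difference was positive and reached an unadjusted p under 0.05 in both diets was Klf10.

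**Figure D4:**
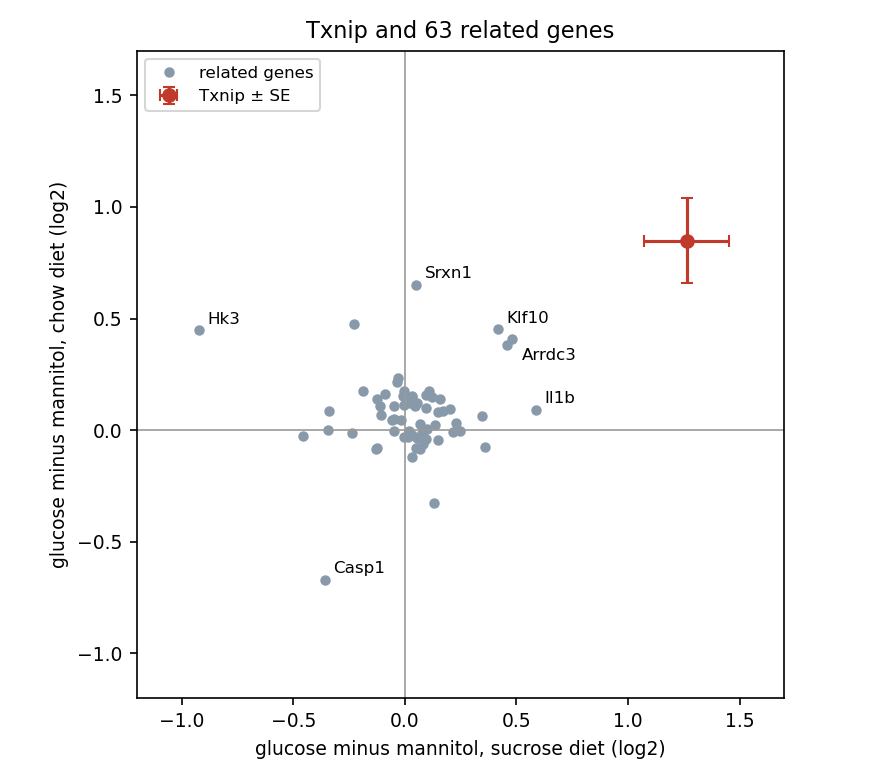
Log2 difference between glucose and mannitol hearts in sucrose-fed rats (horizontal axis) and chow-fed rats (vertical axis) for 63 related genes (grey) and Txnip (red, ± SE in each diet). Txnip lies at 1.26 and 0.85, and the related genes lie nearer to the origin, with Klf10 and Arrdc3 at differences between 0.41 and 0.48 in both diets.

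Arrdc3, an alpha-arrestin and an adaptor that brings ubiquitin ligases to membrane receptors, gave -1.30, -2.13, -1.47, -1.57 and -2.38 in sucrose glucose hearts, against -2.71, -2.01, -2.19, -1.72 and -2.62 in sucrose mannitol hearts. In chow hearts it gave -2.29, -1.64, -2.00, -0.80 and -1.83 with glucose, against -1.87, -2.34, -2.04, -1.80 and -2.56 with mannitol. The arrays overlapped in both diets, and neither the sucrose difference of 0.48 (SE 0.24, limma adjusted p = 0.997) nor the chow difference of 0.41 (SE 0.24, adjusted p = 0.999) passed. Arrdc2, another family member, differed by -0.34 (SE 0.31) in sucrose hearts and by 0.00 (SE 0.31) in chow hearts.

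Klf10, a zinc finger factor known in liver as a target of ChREBP, gave 2.97, 2.48, 2.06, 2.54 and 2.62 in sucrose glucose hearts, against 1.98, 2.12, 2.11, 2.26 and 2.12 in sucrose mannitol hearts. In chow hearts it gave 2.81, 2.67, 2.64, 2.43 and 2.88 with glucose, against 2.14, 2.57, 2.01, 2.36 and 2.09 with mannitol. Most glucose arrays were above the mannitol arrays of their diet, with overlap in both. The differences were 0.42 (SE 0.18, limma adjusted p = 0.97) in sucrose hearts and 0.45 (SE 0.18, adjusted p = 0.999) in chow hearts. Thrsp, a lipogenic target of ChREBP in liver, differed by 0.07 (SE 0.21) in sucrose hearts and by -0.08 (SE 0.21) in chow hearts.

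Neither tested gene of the glucose sensors passed between buffers. Mlxipl, which encodes ChREBP, differed between glucose and mannitol by 0.25 (SE 0.17) in sucrose hearts and by 0.00 (SE 0.17) in chow hearts, at levels between -3.73 and -2.41 on all perfused arrays. Mlx, the partner of both MondoA and ChREBP, differed by 0.02 (SE 0.07) and 0.00 (SE 0.07) in sucrose and chow hearts.

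Thioredoxin, the partner that TXNIP inhibits, is encoded by Txn1 in the cytosol and by Txn2 in mitochondria. Txn1 ran from 4.06 to 4.54 in sucrose glucose hearts and from 4.08 to 4.42 in sucrose mannitol hearts, a difference of 0.04 (SE 0.08). In chow hearts Txn1 ran from 4.17 to 4.36 with glucose and from 4.06 to 4.29 with mannitol, a difference of 0.11 (SE 0.08). Txn2 differed by 0.15 (SE 0.23) in sucrose hearts and by 0.08 (SE 0.23) in chow hearts. Of the 17 tested genes of the thioredoxin system, 0 passed in either diet. The 2 reductases that recharge thioredoxin, Txnrd1 and Txnrd2, differed by 0.05 (SE 0.09) and 0.05 (SE 0.08) in sucrose hearts and by 0.12 (SE 0.09) and -0.08 (SE 0.08) in chow hearts.

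The transporters whose surface level TXNIP lowers did not pass between buffers either. Slc2a4, which encodes the insulin-responsive transporter GLUT4, differed by 0.10 (SE 0.08) in sucrose hearts and by -0.04 (SE 0.08) in chow hearts between glucose and mannitol. Slc2a1, which encodes GLUT1, differed by 0.08 (SE 0.17) in sucrose hearts and by -0.06 (SE 0.17) in chow hearts. Hk2, the insulin-responsive hexokinase of muscle, differed by 0.20 (SE 0.12) in sucrose hearts and by 0.09 (SE 0.12) in chow hearts. Itch, a ubiquitin ligase that targets TXNIP for degradation, was dim, being above background on 4 of 5 arrays in both sucrose groups, on 3 of 5 chow glucose arrays and on 4 of 5 chow mannitol arrays.

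Against non-perfused hearts, more of the related genes passed. Row on the slide differed between the groups in all these comparisons except chow mannitol, as for Txnip. In sucrose glucose hearts, 9 of 63 rose and 1 fell, in a comparison where 8.68% of all tested genes passed (5.54% higher and 3.14% lower). In chow glucose hearts, 9 rose and 2 fell, where 9.5% of all tested genes passed (5.47% higher and 4.04% lower). In sucrose mannitol hearts, 7 rose and 2 fell, where 11.2% of all tested genes passed (5.53% higher and 5.67% lower). In chow mannitol hearts, 7 rose and 2 fell, where 8.49% of all tested genes passed (4.83% higher and 3.65% lower). The shares of the 63 genes were 15.9%, 17.5%, 14.3% and 14.3% in the same order, but the lists were chosen with earlier results known, so the gap to the share over all genes is not a result about them. The median of the 63 differences was 0.04 in sucrose glucose, 0.04 in chow glucose, 0.01 in sucrose mannitol and -0.02 in chow mannitol hearts, beside medians over all tested genes of -0.03, -0.05, -0.04 and -0.01 in the same order.

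Arrdc3 and Klf10 rose with either buffer, whereas the mean Txnip level was lower with mannitol than without perfusion, by -0.63 (SE 0.19) in sucrose hearts. In chow hearts the Txnip difference was only -0.22 (SE 0.19). Every chow mannitol array there lay within the range of the non-perfused ones, and the sign depended on the spot. Non-perfused hearts gave Arrdc3 levels of -2.45, -3.20, -2.97, -3.24 and -3.30 in sucrose-fed and of -2.99, -3.17, -3.09, -3.01 and -2.96 in chow-fed rats. Arrdc3 rose by 1.26 (SE 0.24, adjusted p = 0.000664) in sucrose glucose hearts and by 1.33 (SE 0.24, adjusted p = 0.000293) in chow glucose hearts. With mannitol it rose by 0.78 (SE 0.24, adjusted p = 0.0339) in sucrose hearts, where the call held in 13 of 24 alternative settings, and by 0.92 (SE 0.24, adjusted p = 0.0133) in chow hearts.

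Klf10 in non-perfused hearts stood at 0.70, 0.99, 1.68, 1.34 and 0.86 in sucrose-fed and at 0.86, 0.56, 1.31, 1.68 and 0.98 in chow-fed rats. It rose by 1.42 (SE 0.18) in sucrose glucose, by 1.61 in chow glucose, by 1.00 in sucrose mannitol and by 1.15 in chow mannitol hearts. The largest adjusted p of these was 0.000406. All 4 calls of Klf10 held in every alternative setting tried.

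In the thioredoxin system, Srxn1 and Txnrd1 led. Srxn1 encodes sulfiredoxin, which restores over-oxidised peroxiredoxins, and it rose by 1.26 (SE 0.24) in sucrose glucose, by 1.74 in chow glucose, by 1.21 in sucrose mannitol and by 1.09 in chow mannitol hearts, with a largest adjusted p of 0.0027. Txnrd1, the cytosolic thioredoxin reductase, rose by 0.39 (SE 0.09, adjusted p = 0.00268) in sucrose glucose, by 0.38 in chow glucose and by 0.34 in sucrose mannitol hearts. Msrb2, a mitochondrial methionine sulfoxide reductase, fell by 0.22 (SE 0.07) in chow glucose, by 0.30 in sucrose mannitol and by 0.23 in chow mannitol hearts. The limma adjusted p of these calls was 0.0408, 0.00515 and 0.0417, and they held in 12 of 25, 20 of 24 and 13 of 25 settings. The remaining 14 tested genes of the system, peroxiredoxins included, passed in none of the 4 comparisons.

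**Figure D5:**
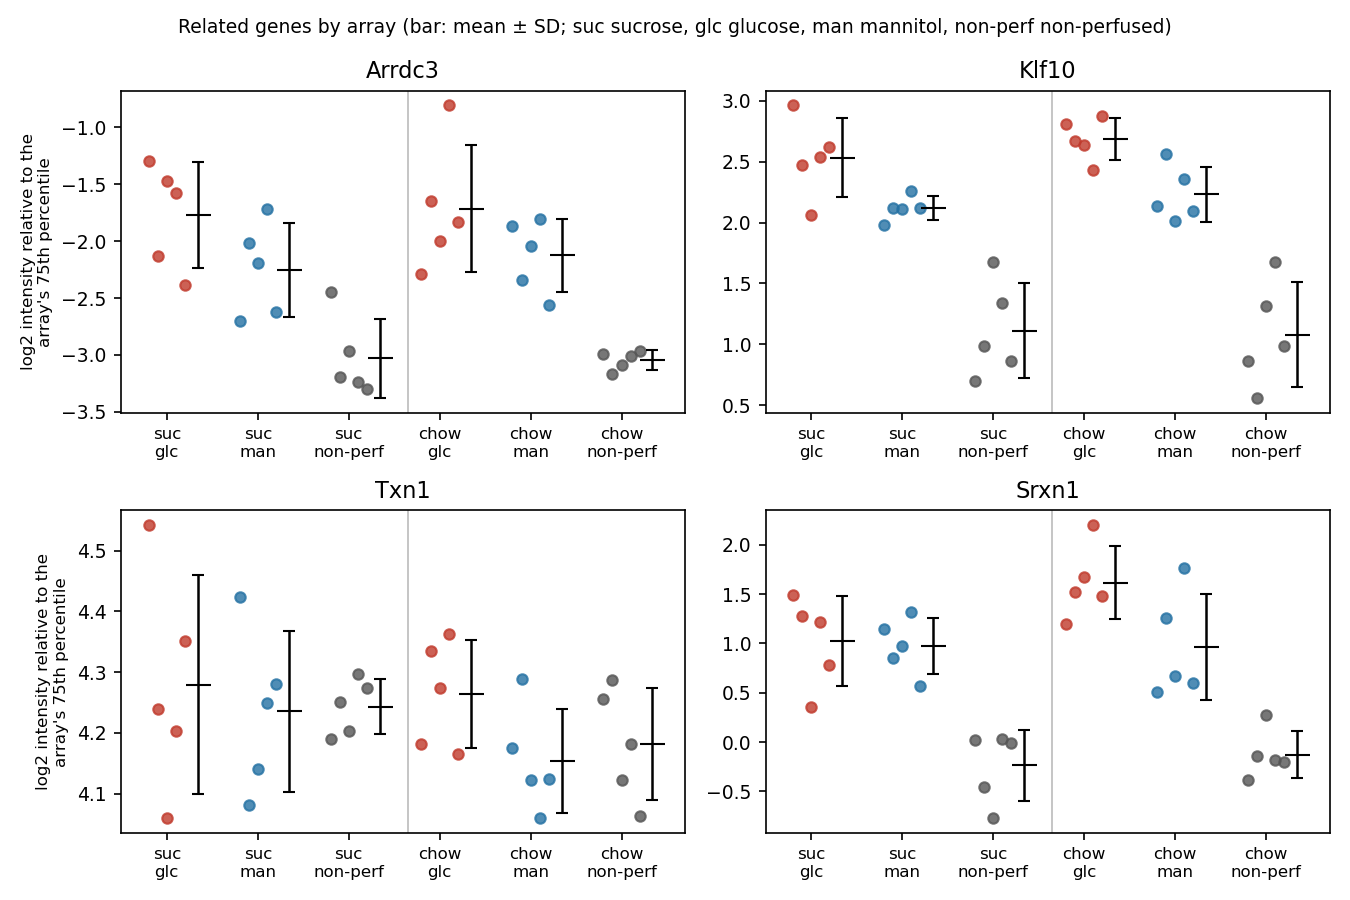
Levels of Arrdc3, Klf10, Txn1 and Srxn1 on each of the 30 arrays, as log2 intensity relative to the array's 75th percentile (vertical axes, a separate scale for each gene), by group; points are arrays and bars the mean ± SD of 5. Klf10 and Srxn1 lie higher in perfused than in non-perfused hearts of each diet, and Txn1 lies between 4.06 and 4.54 throughout.

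Among the partners and downstream genes, Il1b, the cytokine whose processing follows TXNIP and the NLRP3 inflammasome, rose by 3.43 (SE 0.41) in sucrose glucose, by 3.16 in chow glucose, by 2.84 in sucrose mannitol and by 3.07 in chow mannitol hearts. Cdkn1b, which encodes the cell cycle inhibitor p27 that TXNIP is known to stabilise, rose by 0.46 (SE 0.06) in sucrose glucose, by 0.38 in chow glucose, by 0.38 in sucrose mannitol and by 0.40 in chow mannitol hearts. Ddit4, whose product REDD1 binds TXNIP and restrains mTORC1, fell by 0.45 (SE 0.14) in sucrose glucose, by 0.45 in chow glucose, by 0.44 in sucrose mannitol and by 0.60 in chow mannitol hearts. These falls are those of its brighter probe, and its other, dimmer probe gave -0.24, -0.22, -0.18 and -0.41 in the same order. Each of the 4 calls of Il1b held in every alternative setting tried, whereas those of Ddit4 held in 13 of 25, 13 of 25, 9 of 24 and 24 of 25 settings in the same order of groups.

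For glucose entry, Slc2a3, which encodes the high-affinity transporter GLUT3, rose by 2.33 (SE 0.29) in sucrose glucose, by 2.42 in chow glucose, by 2.36 in sucrose mannitol and by 2.19 in chow mannitol hearts. It was above background on 5 of 5 arrays of each perfused group and on 4 of 5 of each non-perfused group. Hk2 rose by 0.40 (SE 0.12, adjusted p = 0.0277) in chow glucose hearts, a call held in 17 of 25 settings. Acacb, the carboxylase that makes malonyl-CoA at the mitochondrial surface, rose by 0.26 (SE 0.09, adjusted p = 0.0499) in chow glucose hearts and by 0.30 (SE 0.09, adjusted p = 0.0253) in chow mannitol hearts. These calls of Acacb held in 8 of 25 and 16 of 25 settings, and its arrays overlapped in both comparisons. Mlx rose by 0.23 (SE 0.07, adjusted p = 0.0454) in sucrose glucose hearts on its brighter probe, a call held in 10 of 25 settings, while its other probe gave 0.02. Hif1a rose by 0.54 (SE 0.17, adjusted p = 0.0499) there, a call held in 3 of 24 settings.

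Between diets, 0 of the 63 related genes passed in any of the 3 states with limma. With glucose 2 had an unadjusted p under 0.05 and 0% of all tested genes passed. With mannitol 3 had an unadjusted p under 0.05 and 0.00545% of all tested genes passed, which was 1 probe without a matched symbol (A_64_P072347), named after its value was seen. Without perfusion 3 had an unadjusted p under 0.05 and 0% of all tested genes passed. For the difference between diets in the response to glucose, 0 of 63 related genes passed, 2 had an unadjusted p under 0.05, and 0% of all tested genes passed.

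The genes with the pattern most like Txnip over the 30 arrays were ranked by the Pearson correlation of log2 levels among 11303 tested genes with a symbol. The arrays share groups, slides and scaling, so these correlations are a description. The 6 highest were Tspyl1 (r = 0.56), a nucleosome assembly protein relative, Lactb2 (0.53), a mitochondrial endoribonuclease, Mgme1 (0.50), a mitochondrial DNA exonuclease, Ptpra (0.50), a receptor tyrosine phosphatase, Psmc3 (0.50), an ATPase of the proteasome cap, and Cct4 (0.50), a chaperonin subunit. The next gene, Adgre4, stood at 0.495, so the boundary of this group is thin. All 6 were well above background on 30 of 30 arrays.

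Their differences between buffers were small beside that of Txnip. Tspyl1 averaged 3.70 ± 0.147 in sucrose glucose and 3.49 ± 0.170 in sucrose mannitol hearts, and 3.68 ± 0.0467 in chow glucose and 3.50 ± 0.0397 in chow mannitol hearts (SD, n = 5 each). Its glucose minus mannitol difference was 0.20 (SE 0.08) in sucrose and 0.18 (SE 0.08) in chow hearts. Mgme1 differed by 0.35 (SE 0.09) in sucrose hearts and by 0.10 (SE 0.09) in chow hearts. Lactb2 differed by 0.30 (SE 0.08) in sucrose hearts and by 0.06 (SE 0.08) in chow hearts. In limma none of the 6 passed an adjusted p of 0.05 between buffers in either diet, and Mgme1 fell by 0.35 in sucrose mannitol against sucrose non-perfused hearts (adjusted p = 0.0145).

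The 4 lowest correlations were those of Or6c69 (r = -0.62), an olfactory receptor gene, Zfp354c (-0.60), a zinc finger gene, Fbxl6 (-0.54), an F-box protein gene, and Rin1 (-0.53), a Ras effector gene. Of these, Fbxl6 was above background on 30 arrays, Zfp354c on 17, Rin1 on 16 and Or6c69 on 13, so 3 of the 4 were not well above background on many of the arrays. Fbxl6 averaged -1.96 ± 0.208 in sucrose glucose and -1.63 ± 0.252 in sucrose mannitol hearts, and -2.06 ± 0.122 in chow glucose and -1.96 ± 0.0722 in chow mannitol hearts (SD, n = 5 each).

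Leaving out the 2 arrays farthest from the median of Txnip, sucrose glucose replicate 5 and sucrose mannitol replicate 4, the 6 highest correlations became 0.39 to 0.52 and the 4 lowest -0.61 to -0.41. When each level was set against its group mean, r was 0.16 for Tspyl1, 0.07 for Lactb2, 0.47 for Ptpra and 0.54 for Psmc3. It was 0.21 for Mgme1 and 0.30 for Cct4. Among the 4 lowest it was -0.38 for Or6c69, 0.01 for Zfp354c, -0.25 for Fbxl6 and -0.27 for Rin1. Arrdc3 correlated with Txnip at 0.27 over the 30 arrays and at -0.16 within groups. Txn1 correlated at 0.23 over the arrays and at 0.09 within groups. Of the related genes, Pfkfb3, which encodes an enzyme that activates glycolysis, correlated most strongly over the arrays, at 0.47 and at 0.46 within groups, and Klf10 next, at 0.40 and at 0.51 within groups. Pfkfb3 was dim. It was well above background on 3 of 5 chow glucose arrays and on 4 of 5 in sucrose mannitol and in both non-perfused groups.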

How the data were processed

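RNA of 30 left ventricles (6 groups of 5) was measured on one-colour Agilent arrays. Per the file headers, the authors deposited scanner files whose processed signal is a background-subtracted intensity from Feature Extraction 11.0.1.1 (10.3 per the submitters' processing notes), with nothing applied between arrays. The authors also deposited log2 values of unstated scaling (array medians 7.23 to 7.24), used as an alternative. Spots not marked as outliers were averaged, and the array's 75th percentile was subtracted on the log2 scale. Probes were named through RefSeq accessions (18355 of 30367 matched), and the brightest probe stood for a gene. Unmatched probes kept their accession or probe name, which then counted as a gene. A gene entered the test if 4 or more of the 5 arrays in any group placed it well above background. Tests were made with limma 3.58.1 (R 4.3.3, version 1.17.8 of data.table, version 2.0.0 of jsonlite), with 1 mean per group and Benjamini-Hochberg adjustment over the 18333 genes of each of 10 comparisons at 0.05, and the settings were tested on simulated data.

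Txnip, the lists and the naming rule were chosen with earlier results of these data known. Named were the 6 genes of highest and 4 of lowest correlation with Txnip, up to 4 called members per list by smallest p, and genes given by name, such as Txn1, Slc2a4 and Thrsp. Hk3, Casp1, Pfkfb3, Adgre4 and the markers given singly lie outside this rule and were named after their values were seen. Alternatives were quantile and other scalings, normexp (offset 50), the authors' values, no filter or a stricter one, slide or replicate number as a block, array weights, only the compared groups, leaving out arrays, and, added after the data were seen, each Txnip spot alone and correlations among genes above background on all arrays. Replicate numbers showed no pairing: the mean correlation of residuals was -0.04 between arrays sharing a number, 0.01 between arrays of different number and 0.20 between arrays on the same slide. No 2 arrays were identical.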

Additional observations from a re-analysis of the deposited data

Results flagged for a closer look

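Of 198 sets of 5 arrays (33 named genes in 6 groups), 9 had 1 array far from the other 4 by Dixon's criterion, and chance flags about 1 in 20 groups, or 5%. For Txnip itself the array was sucrose glucose replicate 3, at 3.46 with the nearest of the other 4 at 4.18. Without it the glucose minus mannitol difference in sucrose hearts was 1.42, against 1.26 with it. The same array was high for Fbxl6, at -1.60 with the nearest at -2.02. Fbxl6 was named for its negative correlation with Txnip over these arrays, so its flag is no separate sign about this array.

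The other arrays far from their group belonged to different genes. Psmc3 was low in chow non-perfused replicate 1 (2.18), and Cct4 in chow mannitol replicate 2 (0.778). Ddit4 was low in chow mannitol replicate 1 (0.0662), and Slc2a1 in chow glucose replicate 1 (0.397). Hk2 was low in sucrose mannitol replicate 1 (-1.38), the array alone on its slide, and Msrb2 in sucrose mannitol replicate 4 (1.07). Slc2a3 was high in sucrose non-perfused replicate 5, at -3.00 with the nearest at -4.94.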

How the results depend on the processing

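All 235 alternative values of the Txnip differences stayed within the spread between replicates of the main values. Over other settings, glucose minus mannitol ran from 1.18 to 1.37 in sucrose and from 0.81 to 0.89 in chow hearts, and over fits leaving out 1 array from 1.18 to 1.42 and from 0.81 to 0.94. The same fits gave 0.52 to 0.79 for sucrose glucose and 0.45 to 0.76 for chow glucose against non-perfused, -0.74 to -0.53 for sucrose and -0.40 to -0.09 for chow mannitol against non-perfused, and -0.50 to -0.34 for diet with mannitol. With replicate number as a block, sucrose glucose minus mannitol was 1.26 (SE 0.21), chow 0.85 (SE 0.21), and related genes called against non-perfused hearts numbered 7 (sucrose glucose), 9 (chow glucose), 8 (sucrose mannitol) and 9 (chow mannitol); the numbers do not pair the samples. Counts of related genes moved. In sucrose glucose against non-perfused hearts they were 6 with normexp and 6 with the authors' values (main 10), and 7 to 10 leaving out 1 array. In chow glucose they were 5 with the authors' values (main 11), and 7 to 11 leaving out 1 array, with 7 without chow non-perfused replicate 1 or without chow glucose replicate 4. In sucrose mannitol they were 5 with normexp, 5 with the authors' values and 5 with only the compared groups (main 9), and in chow mannitol 4 with the authors' values (main 9). Calls over all genes in the order sucrose glucose, chow glucose, sucrose mannitol and chow mannitol against non-perfused numbered 1592, 1742, 2054 and 1556, against 851, 975, 994 and 855 with normexp and 447, 421, 413 and 361 with the authors' values, and 1088 in sucrose mannitol with only the compared groups. The authors' values also shifted the median gene by 0.17 (difference between diets in the glucose response), 0.11 (sucrose glucose against non-perfused), -0.12 (diet without perfusion) and -0.14 (chow glucose against mannitol). The cause was not tested. Of the 10 genes ranked most and least like Txnip, 4 were shared with slide means removed, 4 with quantile normalization, 0 with deviations from group means, 7 with Spearman's correlation and 7 among genes above background on all arrays. No other Txnip probe was there to be used alone.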
